A study of Mus musculus with 12 samples.

Results

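Matrix metalloproteinases cut the proteins of the extracellular matrix, and tissue inhibitors of metalloproteinases (Timps) bind and block them. The data describe 10 of these genes, 7 metalloproteinases (Mmp2, Mmp3, Mmp11, Mmp12, Mmp13, Mmp14 and Mmp19) and 3 inhibitors (Timp1, Timp2 and Timp3), among the 55536 genes measured in the stromal vascular cells of mouse inguinal fat. The genes were chosen by name, after results for these same libraries were known, so their values and fold changes are given as a description, without p-values. All 10 were found in both deposited tables. RNA of 12 male mice on a mixed C57BL6/J-129SV background was sequenced, 1 library per mouse and 4 per group. The 12-month Pdgfrb-KO mice carried Sma-CreERT2, a Cre reporter and floxed Pdgfrb alleles, and had received tamoxifen. The labels name the controls of both ages wild type. The 12-month controls are described elsewhere as Sma-Control mice, which carry Sma-CreERT2 and the reporter. The genotype of the 2-month controls is not given in the sources used here. Nor is it given for these libraries whether the controls of either age had received tamoxifen. All mice were kept at room temperature. Because the smooth muscle actin promoter drives this Cre, Pdgfrb was deleted only in the cells that express it, and these libraries hold the other cells of the depot as well.

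Metalloproteinases are made as inactive precursors and are switched on outside the cell, by plasmin, by furin-type proteases or by each other. In adipose tissue they come from stromal progenitors, vascular cells and macrophages, and they are known for remodelling collagen when fat expands. The inhibitors bind the active enzymes in a 1-to-1 complex, and the balance of the pair sets how much matrix is cut.

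Depth and labels were checked first. The normalised read counts of a library summed to 19.6 to 21.9 M (1 M is 1000000), and the raw counts behind them were estimated at 13.8 to 19.97 M in 12-month Pdgfrb-KO, 21.0 to 29.0 M in 12-month control and 21.4 to 24.8 M in 2-month control libraries, so low genes are less certain in the KO. The targeted gene Pdgfrb, a growth factor receptor of mural and progenitor cells, had 1882, 2145, 1707 and 1749 normalised read counts in 12-month Pdgfrb-KO, against 3000, 4380, 3258 and 2399 in 12-month control. The groups did not overlap (log2 fold change -0.77 ± 0.17 SE, adjusted p = 0.016, limma). In 2-month control it had 2349 to 2536, which overlapped the 12-month control. With age Pdgfrb did not pass the test (log2 fold change 0.40 ± 0.15 SE for 12-month control over 2-month control, adjusted p = 0.068, limma). All 10 markers of fibroblastic progenitors were present, summing to 89727 to 92489 in 12-month Pdgfrb-KO, 106926 to 132901 in 12-month control and 68414 to 94186 in 2-month control. In such bulk samples, fewer cells of a type and less RNA per cell cannot be told apart.

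With age, most of the metalloproteinases were higher: Mmp12, Mmp3, Mmp11, Mmp14, Mmp19, Mmp2 and the inhibitor Timp2 were each higher in every 12-month control than in every 2-month control, while Mmp13, Timp1 and Timp3 overlapped. In the 12-month Pdgfrb-KO, Mmp12 and Mmp3 were lower than in 12-month control, along with Mmp11 and Mmp2, and Timp1 was higher. Mmp14, Mmp19, Mmp13, Timp2 and Timp3 overlapped between 12-month Pdgfrb-KO and 12-month control. The 2 comparisons share the 4 libraries of 12-month control, so a high or low value in these libraries enters both, with opposite sign.

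**Figure D1:**
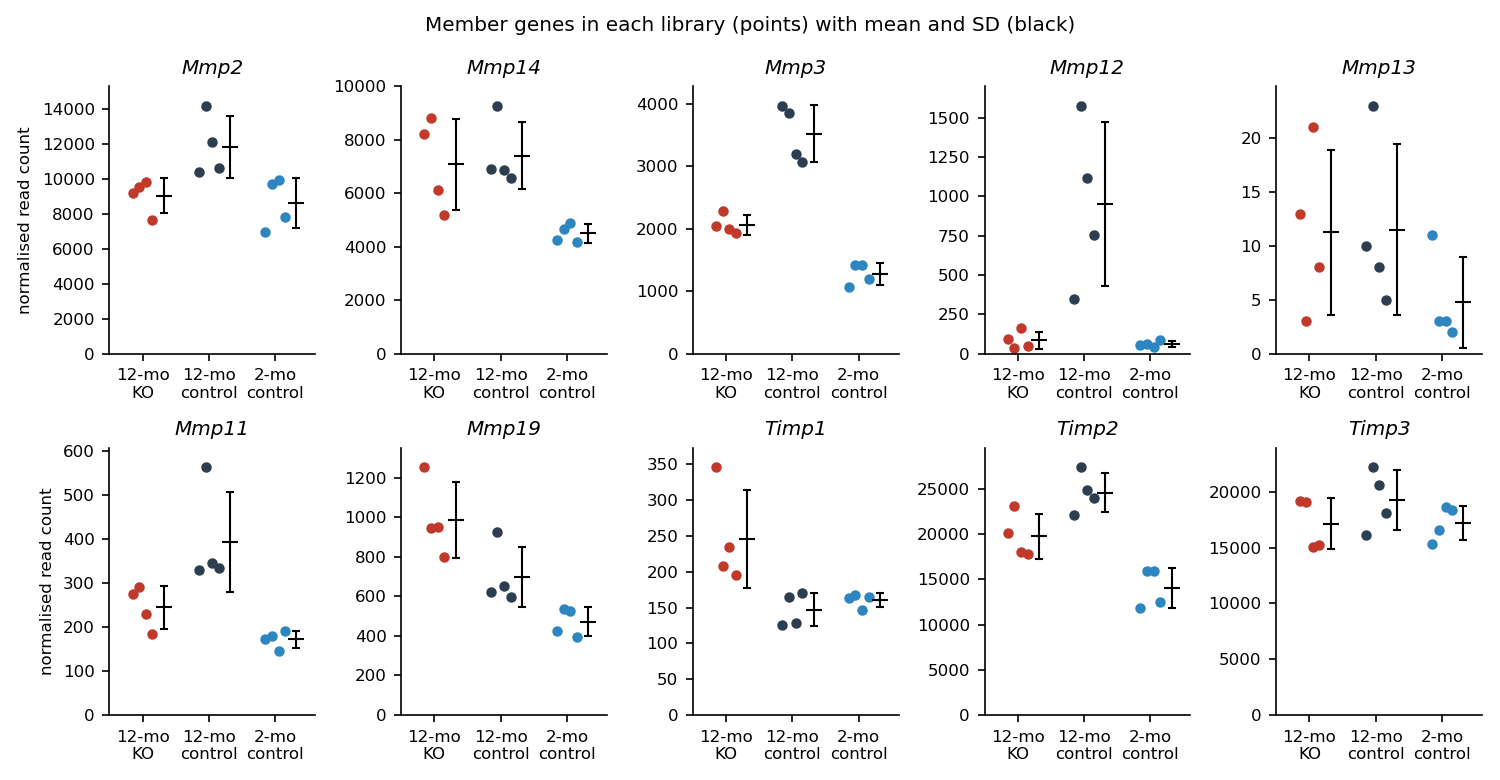
Normalised read counts of the 10 genes in each library, in 12-month Pdgfrb-KO (red), 12-month control (dark) and 2-month control (blue) mice; the black mark is the mean with its SD (n = 4), and each panel starts at 0. Mmp12 lies between 349 and 1577 in 12-month control, above every library of 12-month Pdgfrb-KO and of 2-month control.

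Mmp12, the macrophage elastase (ENSMUSG00000049723, chr9:7344381-7369499, plus strand, GRCm38), differed more than any other of the 10 genes. It had 90, 35, 160 and 47 normalised read counts in 12-month Pdgfrb-KO, against 349, 1577, 1118 and 757 in 12-month control. The 2-month control had 55, 63, 44 and 84. Every 12-month control was thus above every other library, and the 12-month control itself spread widely, its highest mouse far above its lowest. The means were 83.0 ± 56.5 in 12-month Pdgfrb-KO, 950.2 ± 523 in 12-month control and 61.5 ± 16.9 in 2-month control (SD, n = 4 each). The log2 fold change was -3.54 ± 0.51 (SE) for 12-month Pdgfrb-KO over 12-month control and 3.77 ± 0.39 for 12-month control over 2-month control. KO and 2-month values overlapped. Mmp1b, which overlaps the end of Mmp12 on the other strand, was at 0 or 1 in all 12 libraries.

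Mmp3, or stromelysin 1, cuts many matrix proteins and activates other precursors (ENSMUSG00000043613, chr9:7445822-7455975, plus strand). It had 2033, 2288, 1987 and 1934 normalised read counts in 12-month Pdgfrb-KO, against 3963, 3855, 3187 and 3061 in 12-month control. At 2 months the control values were 1057, 1416, 1422 and 1196. The 3 groups formed separate ranges, with 12-month Pdgfrb-KO between the controls of both ages. Its log2 fold change was -0.76 ± 0.12 for 12-month Pdgfrb-KO over 12-month control and 1.47 ± 0.12 for 12-month control over 2-month control.

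Mmp13, a collagenase (ENSMUSG00000050578, chr9:7272514-7283331, plus strand), was near the floor of detection. It had 13, 3, 21 and 8 normalised read counts in 12-month Pdgfrb-KO, against 10, 23, 8 and 5 in 12-month control. Values in 2-month control were 11, 3, 3 and 2. The ranges overlapped in both comparisons, and with too few libraries at 10 or more, the gene was not fitted for age. Its log2 fold change for 12-month Pdgfrb-KO over 12-month control, -0.09 ± 0.59, had an SE larger than the value itself.

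These genes and Mmp27, a related enzyme that is no member of the group, lie in a single run of 10 metalloproteinase genes on chromosome 9 (chr9:7272514-7699585, 427.1 kb). In mouse and human, several genes of this run are known targets of the AP-1 transcription factor, which binds TGANTCA near the gene start. The 120 bases before each RefSeq start (GRCm38.p6, all plus strand) are shown for the 3 members of the run, for Mmp27, which moved the other way, and for Timp1, the inhibitor whose KO values were higher. Capitals mark TGANTCA and TATAAA, each searched on both strands.
Mmp3, chr9:7445702-7445821: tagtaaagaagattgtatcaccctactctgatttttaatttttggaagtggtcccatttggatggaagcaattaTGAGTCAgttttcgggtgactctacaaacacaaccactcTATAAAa
Mmp13, chr9:7272394-7272513: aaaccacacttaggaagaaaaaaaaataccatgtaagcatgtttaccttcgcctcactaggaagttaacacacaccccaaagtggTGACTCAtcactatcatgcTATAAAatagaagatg
Mmp12, first start, chr9:7344277-7344396: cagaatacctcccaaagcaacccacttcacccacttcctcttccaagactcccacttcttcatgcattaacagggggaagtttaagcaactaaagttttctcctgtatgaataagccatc
Mmp12, second start, chr9:7347254-7347373: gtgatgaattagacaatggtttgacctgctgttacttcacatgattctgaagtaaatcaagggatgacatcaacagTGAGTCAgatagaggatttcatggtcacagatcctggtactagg
Mmp27, chr9:7571276-7571395: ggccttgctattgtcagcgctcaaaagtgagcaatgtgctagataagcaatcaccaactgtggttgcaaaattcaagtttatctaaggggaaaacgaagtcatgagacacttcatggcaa
Timp1, chrX:20870046-20870165: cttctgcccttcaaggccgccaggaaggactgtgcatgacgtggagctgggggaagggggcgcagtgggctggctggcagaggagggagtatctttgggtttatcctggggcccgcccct
Mmp3 and Mmp13 held both motifs, with TGANTCA beginning 46 and 35 bases before the start. The second start of Mmp12 held TGANTCA at 44 bases, and its first start held neither motif. Mmp27 and Timp1 held neither. Over 8 of the 10 genes with a RefSeq window, 9 starts in all, 3 held TGANTCA, 2 held TATAAA and 2 held both. Among 32851 windows of the same length over all genes, 3.41% held TGANTCA, 6.34% held TATAAA and 0.359% held both. A match describes the letters only.

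Along the run, genes differed in direction. Mmp27 had 330, 184, 384 and 183 normalised read counts in 12-month Pdgfrb-KO, against 86, 129, 133 and 85 in 12-month control. In 2-month control it had 270, 438, 483 and 353. Its 12-month control values lay below all others, the reverse of Mmp12 and Mmp3. It was higher in 12-month Pdgfrb-KO than in 12-month control (means 270.2 ± 103 and 108.2 ± 26.3 SD, adjusted p = 0.0161, limma) and lower in 12-month control than in 2-month control (log2 fold change -1.82 ± 0.21 SE, adjusted p = 0.000149). The first call was lost without 12-month Pdgfrb-KO replicate 1 or 12-month control replicate 1, with an adjusted p of up to 0.0539. Mmp8, a neutrophil collagenase, had 11 to 29 in 12-month Pdgfrb-KO and 1 to 11 in 12-month control and did not pass the test (adjusted p = 0.0753, limma). The remaining 5 genes of the run, Mmp1a, Mmp1b, Mmp7, Mmp10 and Mmp20, had at most 7 normalised read counts in any library.

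**Figure D2:**
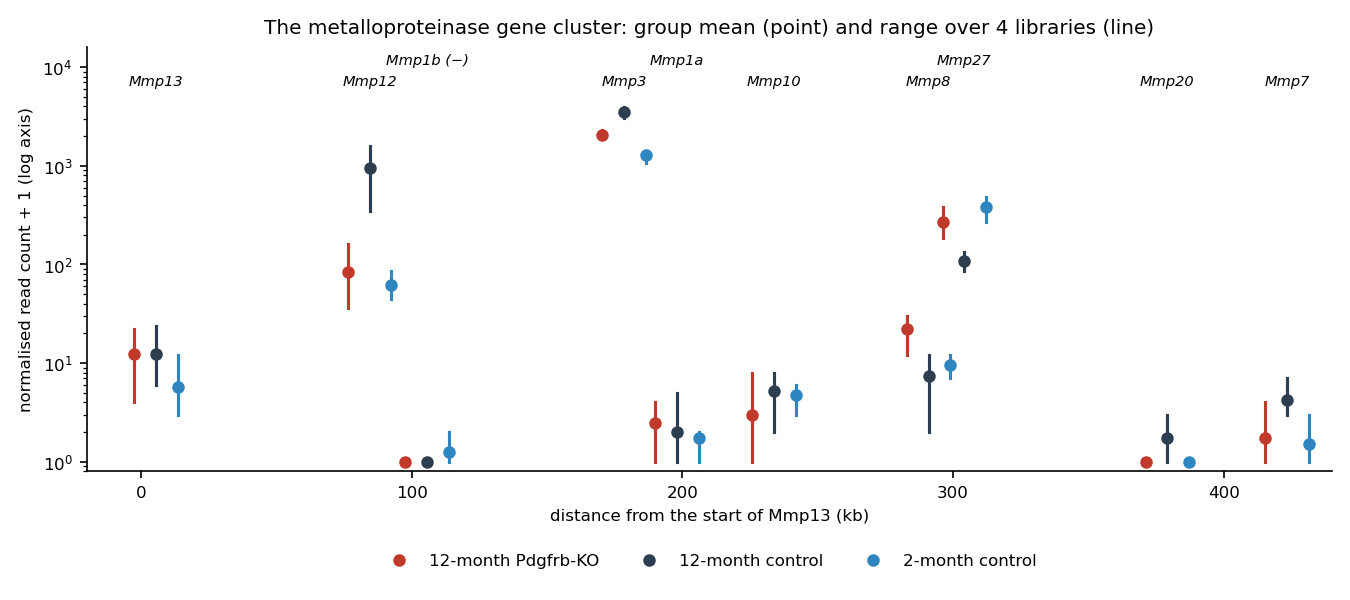
Group means (points) and ranges over 4 libraries (lines) of the 10 metalloproteinase genes on chromosome 9, placed by distance in kb from the start of Mmp13, with normalised read count + 1 on a log axis; the groups of a gene stand side by side for legibility. Mmp12 and Mmp3 are highest in 12-month control, and Mmp27 is lowest there.

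Among the collagen- and gelatin-cutting enzymes of stromal cells, Mmp2 is gelatinase A (ENSMUSG00000031740, chr8:92827291-92853420, plus strand). It had 9150, 9522, 9821 and 7604 normalised read counts in 12-month Pdgfrb-KO, against 10377, 14159, 12092 and 10590 in 12-month control. The 2-month control had 6974, 9666, 9947 and 7784. The 12-month control was above both other groups, which overlapped each other. Fitted, the log2 fold change was -0.38 ± 0.14 for 12-month Pdgfrb-KO over 12-month control and 0.46 ± 0.14 for 12-month control over 2-month control.

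Mmp14, the membrane-bound enzyme that activates the Mmp2 precursor (ENSMUSG00000000957, chr14:54431612-54445364, plus strand), overlapped between the 12-month groups. It had 8193, 8800, 6122 and 5175 normalised read counts in 12-month Pdgfrb-KO, against 6912, 9264, 6860 and 6555 in 12-month control. At 2 months the control values were 4241, 4671, 4883 and 4164. In 12-month Pdgfrb-KO 2 libraries lay within the 12-month control range and 2 below it, and all 8 libraries of 12-month mice were above the 2-month control. On the log2 scale the fold change was -0.08 ± 0.18 for 12-month Pdgfrb-KO over 12-month control and 0.71 ± 0.12 for 12-month control over 2-month control.

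Mmp11, or stromelysin 3, is activated inside the cell by furin (ENSMUSG00000000901, chr10:75923222-75936496, minus strand). It had 275, 292, 229 and 184 normalised read counts in 12-month Pdgfrb-KO, against 330, 563, 345 and 334 in 12-month control. Values in 2-month control were 173, 180, 146 and 190. Replicate 2 of the 12-month control stood far above its group, and the other 3 of the group were still above every library of 12-month Pdgfrb-KO and of 2-month control. The log2 fold change was -0.66 ± 0.20 for 12-month Pdgfrb-KO over 12-month control, or -0.48 without that replicate, and 1.15 ± 0.17 for 12-month control over 2-month control, or 0.97 without it. Mmp11 overlaps Chchd10 on the opposite strand, which had 216 to 413 in every library, and the strand setting of the counting is not given, so reads from the shared stretch cannot be told apart.

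Mmp19, which cuts basement membrane proteins (ENSMUSG00000025355, chr10:128790910-128800824, plus strand), had its highest mean in the KO. It had 1252, 944, 949 and 798 normalised read counts in 12-month Pdgfrb-KO, against 621, 924, 652 and 596 in 12-month control. In 2-month control it had 423, 538, 528 and 394. Replicate 2 of the 12-month control reached into the range of the 12-month Pdgfrb-KO, and the 2-month control lay below both. Its log2 fold change was 0.50 ± 0.17 for 12-month Pdgfrb-KO over 12-month control, or 0.64 without that replicate, and 0.56 ± 0.15 for 12-month control over 2-month control, or 0.42 without it. The same limit holds for Tmem198b, which overlaps Mmp19 on the opposite strand and had 253 to 447.

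Of the inhibitors, Timp1 is secreted and blocks most soluble metalloproteinases (ENSMUSG00000001131, chrX:20870166-20874735, plus strand). It had 346, 208, 234 and 195 normalised read counts in 12-month Pdgfrb-KO, against 126, 165, 128 and 170 in 12-month control. The 2-month control had 164, 167, 147 and 165. The 12-month Pdgfrb-KO was above every control of either age, replicate 1 most of all. Fitted, the log2 fold change was 0.71 ± 0.20 for 12-month Pdgfrb-KO over 12-month control, or 0.53 without 12-month Pdgfrb-KO replicate 1, and -0.14 ± 0.14 for 12-month control over 2-month control. Timp1 lies within Syn1 on the opposite strand, and Syn1 had 11 to 34 in every library.

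Timp2 blocks metalloproteinases and, in a complex with Mmp14, also takes part in Mmp2 activation (ENSMUSG00000017466, chr11:118301069-118355740, minus strand). It had 20163, 23152, 18040 and 17760 normalised read counts in 12-month Pdgfrb-KO, against 22149, 27380, 24890 and 23934 in 12-month control. At 2 months the control values were 11857, 15952, 15869 and 12499. The 12-month groups overlapped through the highest KO library, and both lay above the 2-month control. On the log2 scale the fold change was -0.32 ± 0.13 for 12-month Pdgfrb-KO over 12-month control and 0.82 ± 0.12 for 12-month control over 2-month control.

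Timp3 stays bound to the matrix and also blocks ADAM and ADAMTS enzymes (ENSMUSG00000020044, chr10:86300372-86349506, plus strand). It had 19200, 19097, 15047 and 15240 normalised read counts in 12-month Pdgfrb-KO, against 16166, 22194, 20595 and 18125 in 12-month control. Values in 2-month control were 15366, 16565, 18607 and 18333. All 3 groups overlapped, and the log2 fold change was -0.17 ± 0.14 for 12-month Pdgfrb-KO over 12-month control and 0.16 ± 0.12 for 12-month control over 2-month control. Timp3 overlaps Syn3 on the opposite strand, which had 23 to 159 in every library.

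**Figure D3:**
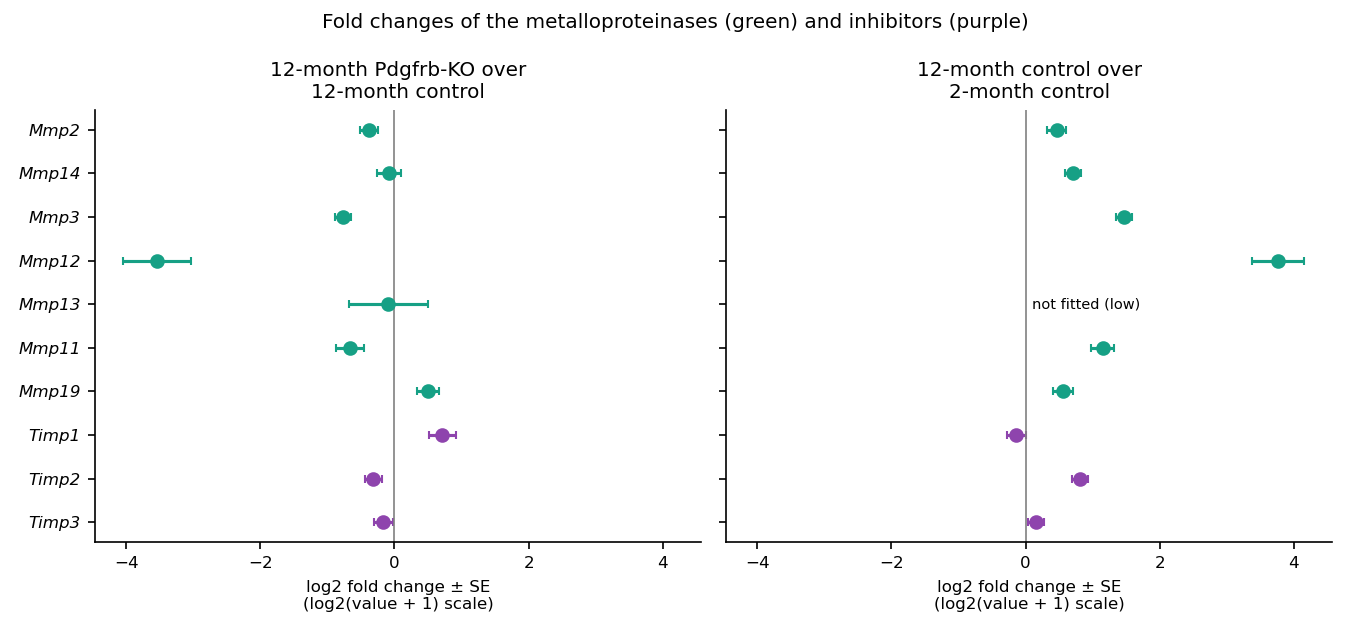
Log2 fold change with its SE, on the log2(value + 1) scale, of the 7 metalloproteinases (green) and 3 inhibitors (purple) for 12-month Pdgfrb-KO over 12-month control (left) and 12-month control over 2-month control (right), 4 libraries a group. Mmp12 is at -3.54 on the left and 3.77 on the right, Timp1 at 0.71 on the left and -0.14 on the right.

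Counted together, 7 of the 10 genes were higher in 12-month control than in 2-month control without overlap, where 12.3% of all genes fitted were, and none was lower without overlap. Of the 9 genes that passed the minimum of 10 in at least 4 libraries, 7 were past an adjusted p of 0.05, all higher, beside 22.7% of all 16399 genes (11.3% higher and 11.4% lower). In 12-month Pdgfrb-KO, 4 of the 10 genes were lower than in 12-month control without overlap and 1 was higher, beside 8.06% lower and 9.05% higher among all genes fitted. Past the threshold were 3 of the 10 genes, Mmp12, Mmp3 and Timp1 (Timp1 narrowly, and no longer when any library but 12-month Pdgfrb-KO replicate 4 was left out), beside 9.42% of 16344 genes (4.96% higher and 4.46% lower). For age, Mmp2 was no longer past the threshold without 12-month control replicate 2 or 3 or 2-month control replicate 1 or 4, nor Mmp19 without 2-month control replicate 1 or 4, and these omissions left 5 or 6 genes. These contrasts are the ones the genes were chosen from, so nothing is read from these counts. The median log2 fold change was 0.71 over the 9 genes and -0.01 over all genes for age, and -0.24 over the 10 genes and -0.01 over all genes for the KO.

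Per kb of exon, which allows a rough comparison of levels between genes, Timp2 was first and Mmp2 second in all 3 groups. The length counts all annotated exons, so a gene whose transcripts use only some of them comes out too low. In 12-month Pdgfrb-KO, Timp2 had 5077 ± 640 normalised read counts per kb and Mmp2 2677 ± 292, followed by Timp3 (2105 ± 284), Mmp14 (1187 ± 286) and Mmp3 (1144 ± 87.2). In 12-month control, Timp2 had 6311 ± 560 per kb, Mmp2 3502 ± 518, Timp3 2366 ± 327, Mmp3 1953 ± 254 and Mmp14 1241 ± 210 (SD, n = 4). In 2-month control, Timp2 had 3605 ± 557 per kb, Mmp2 2549 ± 429, Timp3 2114 ± 188, Mmp14 753.3 ± 57.8 and Mmp3 706.7 ± 98.9. Mmp3 and Mmp14 thus stood in the other order in 12-month control, where their ranges were apart, than in the other groups, where they overlapped. Before division by length, Mmp14 was above Mmp3 in every group, so this order rests on the exon lengths used (5.96 and 1.801 kb). The remaining genes stood below these 5 in every group. Mmp12 had 11.5 ± 7.81 per kb in 12-month Pdgfrb-KO, 131.3 ± 72.2 in 12-month control and 8.50 ± 2.34 in 2-month control, and Mmp13 was last in each group.

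Enzymes and inhibitors were then set against each other within a library. The 7 metalloproteinases summed to 0.474 to 0.579 of the 3 inhibitors in 12-month Pdgfrb-KO, 0.519 to 0.610 in 12-month control and 0.446 to 0.506 in 2-month control. Among these members alone, the range of 12-month control lay narrowly above that of 2-month control (lowest 0.519 against highest 0.506). The range of 12-month control overlapped that of 12-month Pdgfrb-KO. Timp1 made up 0.490% to 0.871% of the summed inhibitors in 12-month Pdgfrb-KO, 0.281% to 0.403% in 12-month control and 0.425% to 0.599% in 2-month control. These sums use the normalised read counts and follow the most abundant genes, Mmp2, Mmp14, Timp2 and Timp3. They hold only the members and leave out other metalloproteinases, such as Mmp9, and the inhibitor Timp4. Timp4 averaged 3872 in 12-month Pdgfrb-KO, 2871 in 12-month control and 1783 in 2-month control. Counting Timp4 among the inhibitors makes the ranges of 12-month control and 2-month control overlap. The separation with age therefore depends on the genes chosen.

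Markers of other cells moved beside the members. Of all genes fitted, 11.3% were higher and 11.4% lower with age, and 4.96% higher and 4.46% lower in the KO. The counts of the lists below stand beside these shares. The 12 macrophage genes summed to 68806 to 115888 in 12-month Pdgfrb-KO, 34808 to 48115 in 12-month control and 17205 to 24643 in 2-month control. By limma, 10 of 12 were higher in 12-month Pdgfrb-KO than in 12-month control, or 9 to 11 with 1 library left out. In 12-month control 9 of 12 were higher than in 2-month control, or 9 to 10, and none was lower in either comparison. Mmp12 was therefore low in the libraries with the most macrophage RNA: per 1000 macrophage marker counts it had 0.322 to 1.96 in 12-month Pdgfrb-KO, 10.03 to 34.3 in 12-month control and 1.83 to 3.41 in 2-month control.

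The 8 genes of lipid-associated macrophages, the lipid-loaded type known from obese fat, summed to 50153 to 54849 in 12-month Pdgfrb-KO, 41431 to 65534 in 12-month control and 49708 to 54531 in 2-month control. Most of the control sums came from Cd36 (means 29980 in 12-month control and 35435 in 2-month control) and Lpl (13511 and 9443). The sums therefore follow Cd36 and Lpl more than Gpnmb, Itgax or Trem2. In 12-month Pdgfrb-KO, 3 of the 8 were lower than in 12-month control and none was higher: Gpnmb (log2 fold change -1.28 ± 0.18, adjusted p = 0.00202), Itgax (-1.23 ± 0.24, adjusted p = 0.01) and Cd9 (-0.63 ± 0.13, adjusted p = 0.0116, all limma). With age, Gpnmb, Itgax, Trem2 and Lpl were higher in 12-month control and Fabp5 was lower, Lpl with an adjusted p of 0.0327 that was lost without 12-month control replicate 2 or 3 or any replicate of the 2-month control. Trem2, a receptor of these cells, averaged 450.5 in 12-month Pdgfrb-KO and 414.2 in 12-month control and did not pass the test (adjusted p = 0.711), against 63.8 in 2-month control. The part of either macrophage list in the level of Mmp12 was not tested.

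**Figure D4:**
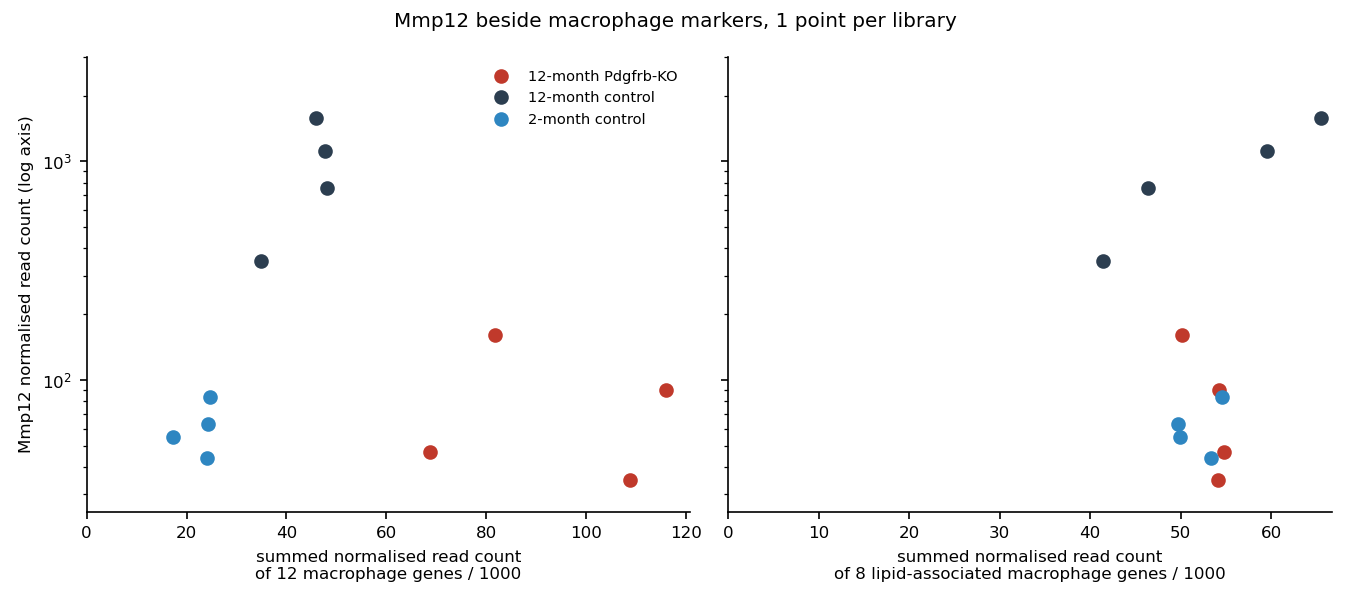
Mmp12 in normalised read counts (log axis) against the summed normalised read counts, divided by 1000, of 12 macrophage genes (left) and 8 lipid-associated macrophage genes (right), with 1 point per library of 12-month Pdgfrb-KO (red), 12-month control (dark) and 2-month control (blue). The KO libraries have the highest macrophage sums, 68806 to 115888, with Mmp12 at 35 to 160. In both control groups most of the sum on the right came from Cd36 and Lpl.

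The fibroblastic progenitor genes differed between groups themselves. With age, 5 of the 10 were higher (Dcn, Pi16, Pdgfra, Ly6a and Cd34), or 3 to 5 with 1 library left out. In 12-month Pdgfrb-KO, 3 were lower than in 12-month control (Dcn, Pi16 and Dpp4), or 2 to 3. A value scaled to these markers therefore follows the markers as well as the member. Against the 10 genes, Mmp3 had 21.6 to 24.7 counts per 1000 marker counts in 12-month Pdgfrb-KO, 26.0 to 37.1 in 12-month control and 15.03 to 16.3 in 2-month control. The 3 ranges stayed apart. Mmp2 had 84.7 to 107 per 1000 in 12-month Pdgfrb-KO, 95.5 to 107 in 12-month control and 102 to 107 in 2-month control, so on this scale its ranges overlapped. Mmp19 had 8.89 to 13.6 in 12-month Pdgfrb-KO, 5.32 to 6.95 in 12-month control and 5.36 to 6.18 in 2-month control. On this scale Mmp19 was apart in the KO and overlapped with age. Mmp11 had 2.05 to 3.16 per 1000 in 12-month Pdgfrb-KO, 2.82 to 4.24 in 12-month control and 1.57 to 2.58 in 2-month control, and so overlapped in the KO but not with age. Mmp14 had 57.7 to 95.1 in 12-month Pdgfrb-KO, 56.0 to 69.7 in 12-month control and 49.6 to 62.0 in 2-month control, so that it overlapped in both comparisons. Unlike its unscaled values, Timp1 was lower with age without overlap on this scale, with 2.17 to 3.75 in 12-month Pdgfrb-KO, 1.04 to 1.53 in 12-month control and 1.59 to 2.40 in 2-month control. Timp2 overlapped in the KO and was apart with age, with 196 to 250 in 12-month Pdgfrb-KO, 203 to 216 in 12-month control and 169 to 173 in 2-month control.

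Other lists moved as well. The 10 neutrophil genes summed to 993 to 1865 in 12-month Pdgfrb-KO, 240 to 618 in 12-month control and 357 to 451 in 2-month control. In 12-month Pdgfrb-KO 5 of 7 fitted were higher, or 4 to 5 with 1 library left out. The 6 skeletal muscle genes summed to 579 to 1516 in 12-month Pdgfrb-KO, 2365 to 5919 in 12-month control and 1719 to 6954 in 2-month control. All 6 were lower in 12-month Pdgfrb-KO than in 12-month control, or 4 to 6 with 1 library left out. The 8 mast cell genes were all higher in 12-month control than in 2-month control, or 7 to 8 with 1 library left out. Their sums were 4494 to 8738 against 2055 to 3137, and 7005 to 11673 in 12-month Pdgfrb-KO. The 8 Schwann cell genes were all lower with age, with sums of 4345 to 5000 in 12-month control and 9893 to 12744 in 2-month control, and 3453 to 5175 in 12-month Pdgfrb-KO. The 8 mural cell genes summed to 22981 to 28976 in 12-month Pdgfrb-KO, 27154 to 46362 in 12-month control and 43245 to 50199 in 2-month control. The 6 skin genes summed to 1440, 193, 59 and 331 in 12-month control, and to at most 139 in 12-month Pdgfrb-KO and 126 in 2-month control. The 8 endothelial genes summed to 34287 to 51610 in 12-month Pdgfrb-KO, 46356 to 79764 in 12-month control and 61140 to 84653 in 2-month control, and the 8 adipocyte genes to 3848 to 7284 in 12-month Pdgfrb-KO, 4292 to 5493 in 12-month control and 2346 to 2680 in 2-month control. Ccl21a of lymph node stroma and Ibsp of bone were at 0 throughout. The lymph node stroma genes summed to 738 to 1202 in 12-month Pdgfrb-KO, 463 to 662 in 12-month control and 224 to 561 in 2-month control. Of these, Glycam1 and Madcam1 were higher in 12-month Pdgfrb-KO (adjusted p = 0.00171 and 0.028, limma) and lower with age. For Madcam1 the KO call was lost without 12-month Pdgfrb-KO replicate 1 or 2 or 12-month control replicate 2 or 3. The cartilage and bone genes summed to at most 1213. The part of all these lists in the levels of the metalloproteinases was not tested.

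Of the 17 genes for the remaining metalloproteinases and Timp4, 9 were fitted. In 12-month control 4 of them were lower and 2 higher, beside 11.4% and 11.3% of all genes, and the other 3 missed the threshold. Lower were Mmp27, Mmp17 (111.5 ± 10.3 in 12-month control, 218 ± 22.7 in 2-month control, adjusted p = 0.000522, limma), Mmp16 and Mmp15, the last 3 membrane-anchored enzymes. Mmp16 was low throughout, with 1 to 6 in 12-month control and 11 to 25 in 2-month control. Higher were Timp4, an inhibitor typical of adipose tissue (2871 ± 490 in 12-month control, 1783 ± 472 in 2-month control, adjusted p = 0.0205, limma), and Mmp9, gelatinase B of myeloid cells (895.8 ± 118 in 12-month control, 585.8 ± 179 in 2-month control, adjusted p = 0.037, limma). Timp4 was lost without 12-month control replicate 2 or 3 (adjusted p up to 0.0715), and Mmp9 without 12-month control replicate 1, 3 or 4 or 2-month control replicate 3 (up to 0.0883). Among abundant members that did not pass, Mmp23 averaged 727.8 in 12-month control and 680 in 2-month control. In 12-month Pdgfrb-KO, 1 of the 9 fitted, Mmp27, was higher and none was lower, beside 4.96% higher and 4.46% lower of all genes. Mmp9 averaged 1245 ± 398 in 12-month Pdgfrb-KO and 895.8 ± 118 in 12-month control (adjusted p = 0.162, limma).

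ADAM and ADAMTS enzymes are the sister families that shed cell surface proteins and cut proteoglycans. With age, 10 of 26 fitted were lower and 3 higher, beside 11.4% and 11.3% of all genes. Their median log2 fold change was -0.39, against -0.01 over all genes. Adamts4, an aggrecanase, had 2372 ± 504 in 12-month control and 5888 ± 373 in 2-month control (log2 fold change -1.34 ± 0.14, adjusted p = 7.36e-05, limma). Adamts9, Adamts17 and Adamts20 were lower too, at -1.02, -1.53 and -2.25. Adamts5, the other main aggrecanase, was higher at 3658 ± 738 in 12-month control and 2117 ± 489 in 2-month control (adjusted p = 0.00595, limma), as were Adam33 and Adam8, the last not without 12-month control replicate 3 or 4 or 2-month control replicate 3 or 4 (adjusted p up to 0.0941). In 12-month Pdgfrb-KO, 2 of 27 were higher and 4 lower, beside 4.96% and 4.46% of all genes. Adamts2, which trims the ends of procollagen, had 6977 ± 1056 in 12-month Pdgfrb-KO and 3449 ± 311 in 12-month control (log2 fold change 1.01 ± 0.13, adjusted p = 0.00127, limma). Adamts15 was also higher (0.80 ± 0.16), and Adamts1, Adamts16, Adamts18 and Adamts4 were lower (-0.70, -1.06, -1.83 and -0.63). Adamts18 was low, with 2 to 15 in 12-month Pdgfrb-KO and 16 to 30 in 12-month control, and its call was kept in 1 of 8 single-library omissions. The lower count dropped to 1 without 12-month control replicate 2 and to 2 without 12-month Pdgfrb-KO replicate 1 or 2 or 12-month control replicate 1 or 3.

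Genes that activate or hold back metalloproteinases were called in both directions. With age, 7 of 19 fitted were higher and 2 lower, beside 11.3% and 11.4% of all genes. Plau, the urokinase that makes plasmin, had 5914 ± 1394 in 12-month control and 2184 ± 130 in 2-month control (log2 fold change 1.41 ± 0.14, adjusted p = 5.46e-05, limma). Serpine2, a serine protease inhibitor, Thbs2 and Lrp1, which binds metalloproteinases for uptake, rose by 0.93, 0.93 and 0.82. Pcsk5, a furin-type protease, and A2m, a broad protease inhibitor, were lower, and that count was 1 without 2-month control replicate 2, 3 or 4. A2m was low throughout, with 2 to 11 in 12-month control and 18 to 22 in 2-month control. In 12-month Pdgfrb-KO, 2 of 18 were higher and 3 lower, beside 4.96% and 4.46% of all genes. Thbs2, a matricellular protein that clears Mmp2 through Lrp1, had 8395, 7369, 8934 and 6813 in 12-month Pdgfrb-KO, against 2547, 2732, 2469 and 2616 in 12-month control, with no overlap (log2 fold change 1.60 ± 0.11, adjusted p = 4.14e-05, limma). Plat, the tissue plasminogen activator, had 1709, 1652, 1510 and 1865 in 12-month Pdgfrb-KO, against 3391, 3686, 3659 and 3156 in 12-month control (-1.05 ± 0.10, adjusted p = 0.00038, limma). Pcsk6 was lower (-0.97 ± 0.13), as was Reck, a membrane-anchored inhibitor (-0.36 ± 0.10, adjusted p = 0.0403, limma), which held only without 12-month Pdgfrb-KO replicate 3 when 1 library was left out. Plaur, the urokinase receptor, was higher (0.67 ± 0.17), and without it the higher count was 1, as happened on leaving out 12-month Pdgfrb-KO replicate 1, 3 or 4 or 12-month control replicate 1, 2 or 3.

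Among cytokines and transcription factors known to induce metalloproteinases, Il1b was higher at both steps. It had 2396, 1737, 1639 and 1615 in 12-month Pdgfrb-KO, against 942, 722, 1057 and 1040 in 12-month control (log2 fold change 0.97 ± 0.16, adjusted p = 0.00428, limma). In 2-month control it had 596, 667, 517 and 424 (0.77 ± 0.15 for 12-month control over 2-month control, adjusted p = 0.00419, limma). The 3 groups did not overlap. With age, 2 of 17 fitted were higher (Il1b and Csf2) and 4 lower (Il6, Ets1, Ets2 and Fosl2), beside 11.3% and 11.4% of all genes. In single-library omissions the higher count was 1 without 12-month control replicate 1 or 2-month control replicate 3 or 4. The lower count was 2 without 12-month control replicate 1 or 2-month control replicate 2, 3 or 4. In 12-month Pdgfrb-KO, 1 of 17 was higher (Il1b) and 1 lower (Ets2), beside 4.96% and 4.46% of all genes. The call of Ets2 (-0.58 ± 0.14, adjusted p = 0.0279, limma) was lost without 12-month Pdgfrb-KO replicate 2, 3 or 4 or 12-month control replicate 2 or 3. The AP-1 genes Junb and Fosb did not pass the test in either comparison; Junb averaged 102843 ± 18993 in 12-month Pdgfrb-KO, 101120 ± 10617 in 12-month control and 98034 ± 9118 in 2-month control.

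Col1a1, a chain of the type I collagen that several of these enzymes cut, was higher in the KO and lower with age. It had 229064 ± 52038 in 12-month Pdgfrb-KO and 77044 ± 5048 in 12-month control (log2 fold change 1.54 ± 0.17, adjusted p = 0.000662, limma), and 270818 ± 26860 in 2-month control (-1.81 ± 0.11 for 12-month control over 2-month control, adjusted p = 1.02e-06, limma). Of the 16 genes for substrates and collagen uptake that were fitted, 5 were higher and 4 lower in 12-month Pdgfrb-KO. The shares of all genes were 4.96% and 4.46%. Higher were Col1a1, Col1a2, Col3a1, Eln and Pepd, a peptidase that recycles collagen proline, and lower were Fn1, Lamc1 and the collagen-degrading proteases Ctsk and Fap (-0.80 ± 0.17 and -0.70 ± 0.16). The higher count was 3 without 12-month Pdgfrb-KO replicate 1 or 12-month control replicate 1, 3 or 4, and the lower count 2 without 12-month Pdgfrb-KO replicate 1. With age, 5 were lower (Col1a1, Col1a2, Col3a1, Col5a1 and Eln) and 4 higher (Lamb1, Fap, Ctsk and Mrc2, the collagen uptake receptor). The shares of all genes were 11.4% and 11.3%.

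**Figure D5:**
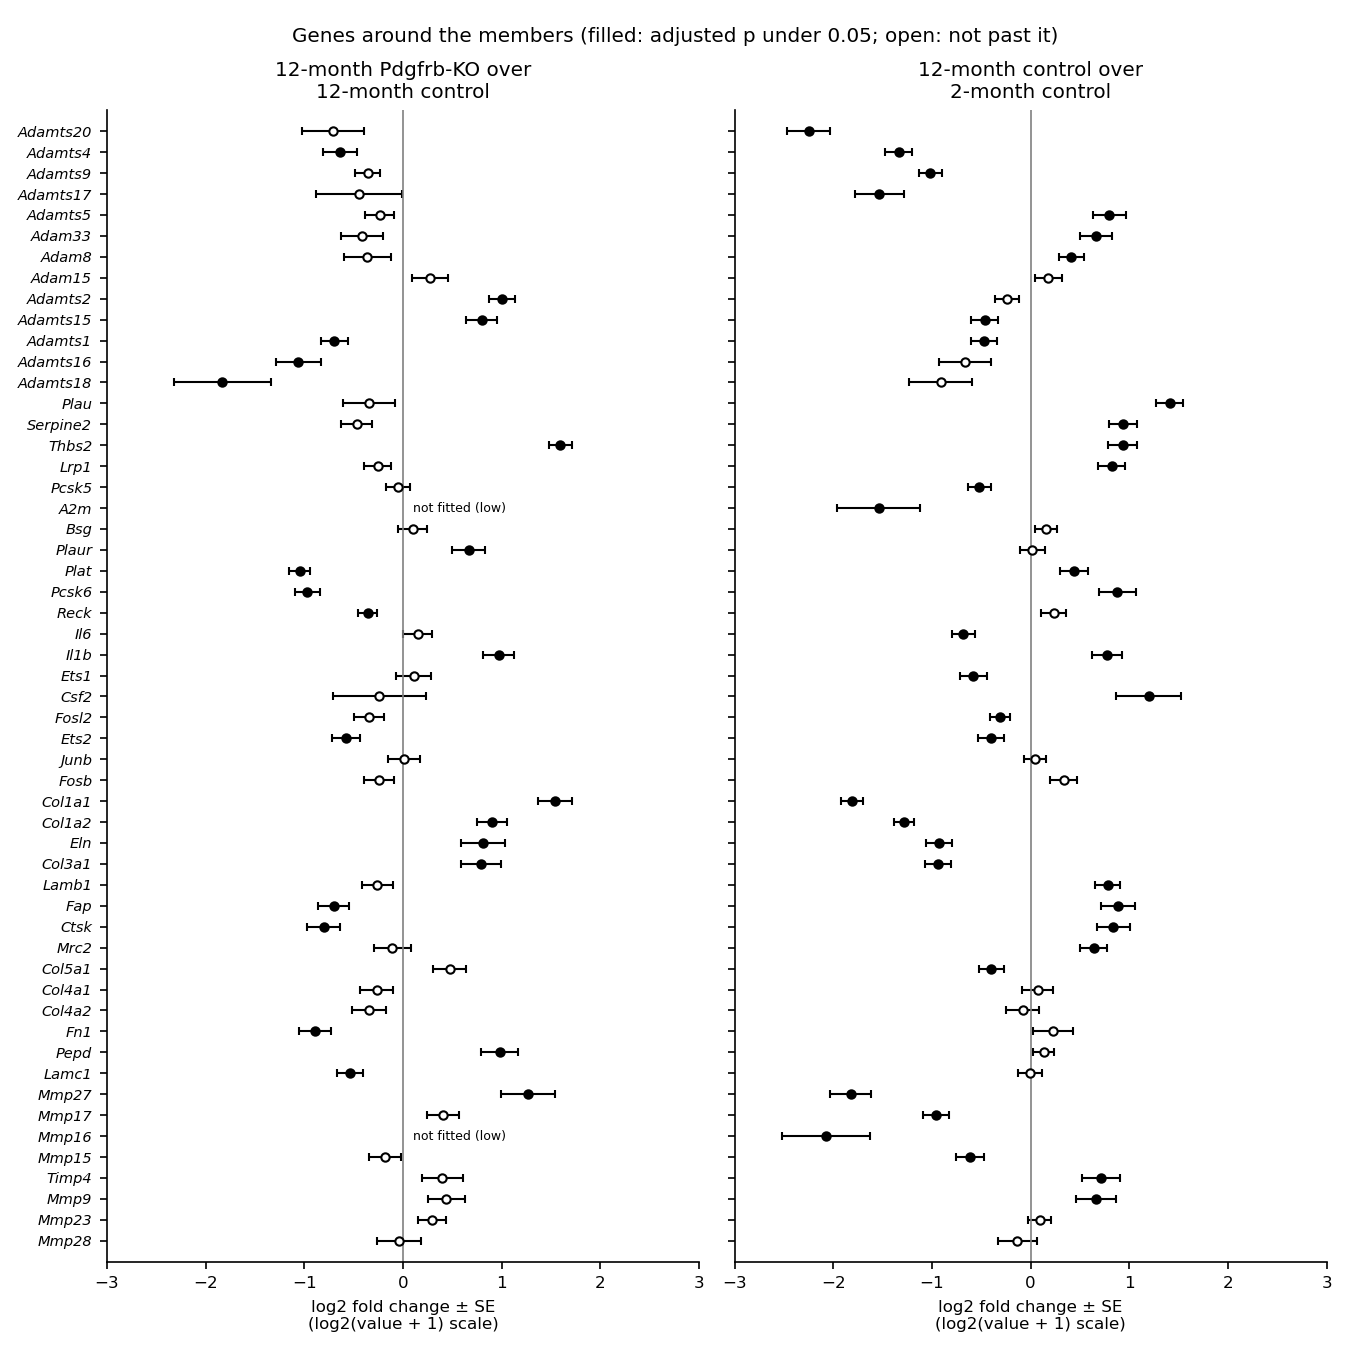
Log2 fold change with its SE of the genes named from the 5 lists around the members, for 12-month Pdgfrb-KO over 12-month control (left) and 12-month control over 2-month control (right), 4 libraries a group; filled points passed an adjusted p of 0.05 in limma and open points did not. Mmp27 and Col1a1 lie on opposite sides of 0 in the 2 panels, and Il1b and Thbs2 lie above 0 in both.

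Finally, genes with the nearest pattern over the 12 libraries were sought, by the root mean square difference of log2 values centred on each gene's own mean. For Mmp3 these were Tnxb, Ces1d, Fam20c, Apod and Fam131b, at 0.18 to 0.23 beside a root mean square deviation of 0.62 for Mmp3 itself. Tnxb, the matrix protein tenascin X, averaged 13568 in 12-month Pdgfrb-KO, 22081 in 12-month control and 9814 in 2-month control. For Mmp12 the nearest were Atp6v0d2, a proton pump subunit of osteoclasts and macrophages, then Trim34a, Vsig8, Trim30d and Mrgprg, at 0.85 to 1.16 beside 1.86 for Mmp12. Atp6v0d2 averaged 44.2 in 12-month Pdgfrb-KO, 164.2 in 12-month control and 12.5 in 2-month control. For Timp1 they were Rilpl2, Ung, Faap20, Snx5 and Slc16a10, at 0.17 to 0.19 beside 0.38. For the low Mmp13 they were Mir99a, Ctcfl, Slc38a5, Nat8f6 and Pou5f2, at 0.56 to 0.65 beside 0.96, all from few reads. Trim34a and Trim30d belong to a family of close copies whose reads the counting could have split, so their levels are uncertain.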

How the data were processed

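PolyA RNA of 12 inguinal fat samples (groups of 4 mice aged 12 or 2 months) was sequenced with a directional kit. Per the labels, the authors used Trim Galore 0.6.0, cutadapt, FastQC, STAR 2.7.0e on GRCm38 and DESeq2 1.26.0; the counting annotation and strand setting are not given in the sources used here. The deposited values are scores: gene counts that the authors divided by a size factor per library and rounded to whole numbers. The 12-month control values were equal in both tables for 100% of genes, so the 3 groups are shown side by side. Raw depth was estimated from the spacing of low values; the factor of 12-month Pdgfrb-KO replicate 4 could also be double. Because the values are not raw counts, each comparison was fitted with limma 3.58.1 (R 4.3.3) on log2(value + 1), with trend and robust estimation, for genes at 10 or more in at least 4 of 8 libraries. Tests were two-sided, Benjamini-Hochberg adjusted over all genes fitted, at 0.05. A fold change on this scale understates that of low genes. The fit was tested on simulated data. The members and lists were chosen with earlier results of these data known, so no p-value of a member is given. How many members passed the threshold is stated beside the share of all genes that did. For the same reason, the adjusted p-values of list genes describe these libraries and are no independent test. Named were each member, Pdgfrb, per list and comparison up to 4 genes past the threshold with the smallest p, any in a count of 5 or fewer and up to 2 abundant ones that did not pass, and the 5 nearest patterns of 4 members (mean of at least 50, except for Mmp13). Exon lengths and positions came from GENCODE vM21 (GRCm38), in which 55450 of 55536 gene IDs were found, and promoter sequence from RefSeq (GRCm38.p6). The alternatives were other pseudocounts, filters, scalings and fits, a replicate block and leaving out each library. Python 3.11.15, pandas 2.3.3, numpy 2.4.6 and matplotlib 3.10.9 were used.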

Additional observations from a re-analysis of the deposited data

Results flagged for a closer look

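Within a group of 4 libraries, values that stood far from the other 3 were listed; chance gives about 1 in 20 groups such a value, and 72 groups were examined. Replicate 2 of the 12-month control was the high value of 3 members, with 563 for Mmp11, 9264 for Mmp14 and 924 for Mmp19. Replicate 1 of the 2-month control was high for Mmp13 at 11, and replicate 3 of the 2-month control was low for Timp1 at 147. Among summed marker lists, the macrophage genes were low in replicate 1 of the 12-month control (34808) and in replicate 1 of the 2-month control (17205). The lipid-associated macrophage genes were low in replicate 3 of the 12-month Pdgfrb-KO (50153), the Schwann cell genes high in replicate 3 of the 12-month control (5000), and the skeletal muscle genes high in replicate 2 of the 12-month Pdgfrb-KO (1516).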

How the results depend on the processing

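Every member's fold change moved by less than the spread between replicates under each alternative that could be fitted (171 values for age and 185 for the KO), and the sign changed only for Mmp13 and Mmp14 in the KO, both near 0. Mmp12 lay between -3.96 and -3.22 in the KO and between 3.45 and 4.18 for age, Mmp3 between -0.83 and -0.70 and between 1.38 and 1.53, and Timp1 between 0.53 and 0.81 in the KO. The number of genes called moved more. For age it was 3727 (1853 higher, 1874 lower), with 1209 lower from all 12 libraries in 1 fit and 2356 to 3961 on leaving out 1 library (1255 to 1951 higher, 1101 to 2010 lower); it was 2356 without 2-month control replicate 4 and 2454 without 2-month control replicate 3. For the KO it was 1539 (810 higher, 729 lower), with 2542 (1289 higher, 1253 lower) from all 12 libraries and 859 to 1878 on leaving out 1 library (451 to 1054 higher, 344 to 824 lower). It was 859, 885 and 895 without 12-month control replicates 3, 2 and 1, and 889 without 12-month Pdgfrb-KO replicate 1. Genes of the 5 lists called higher in the KO numbered 11, or 7 to 11 with 1 library left out (7 without 12-month Pdgfrb-KO replicate 1 or 12-month control replicate 1), and those called lower 12, or 6 to 11 (6 without 12-month control replicate 2, 7 without 12-month Pdgfrb-KO replicate 2 or 12-month control replicate 3). For age they numbered 18 (13 to 18) and 25 (17 to 25). Of the single tests of list genes under alternatives, 1526 of 1636 for age and 1562 of 1643 for the KO stayed on their side of the threshold. Among these lists and the macrophage markers named, calls lost without at least 1 library were, besides those given in the report, Fosl2, Ets2, Csf2, A2m, Col5a1, Adam10, Adamts1, Adamts6, Adamts15, Cd44 and Plat of the lists around the members and the marker Fabp5 (without 2-month control replicate 4) for age and Adamts4, Adamts16, Adamts18, Col3a1, Eln, Fap and Lamc1 in the KO. Col1a2 in the KO had an adjusted p of 0.396 after quantile normalization (limma). Whether replicate numbers pair the mice is not known. Deviations of same-numbered libraries correlated at 0.157, -0.216, -0.048 and -0.176 for age and at -0.0175, 0.375, 0.234 and -0.00277 for the KO. Differently numbered libraries correlated at up to 0.183 for age and 0.365 for the KO, so these values do not settle the question. With the replicate block, 3116 genes were called for age and 2380 for the KO (1200 higher, 1180 lower). Estimated depth in the KO, from 13.8 M counts, limits genes as low as Mmp13.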
